A study of Mus musculus with 30 samples.

Results

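Potassium channel genes were examined in left ventricular RNA of male C57BL6J mice from 2 separate studies, one of the amyloid peptide Aβ42 and one of 3D6, an antibody that neutralises it. Every protein-coding gene of the mouse annotation whose symbol starts with Kcn was taken, and 39 of these 94 genes reached a mean of at least 10 sequencing counts per heart in 1 study or the other. The 39 genes comprise 34 that reached this level with peptide and 32 with antibody, 27 of them in both. In the peptide study, 7 mice were injected with Aβ42 and 7 with ScrAβ42, a peptide of the same residues in scrambled order, every day for 4 weeks. The labels start the injections at 12 weeks of age, and the methods of the study give a range of starting ages that reaches down to younger mice. Mice given peptide are named here by the column of the deposited table (Ab57, Sc48), and those of the antibody study by their number. The sample labels give 1 mg of peptide per day, whereas the methods of the study give the daily dose in micrograms. In the antibody study, 8 mice received 3D6 and 8 a control antibody, an isotype-matched IgG2a, as weekly injections that began after 12 weeks of age. By the methods of the study both antibody groups ate a high-fat diet for the whole antibody period, whereas the series description states that they were also given Aβ42, so the background shared by these groups is not settled by the sources. The RNA is that of whole ventricular tissue, so fewer cells of a type and less RNA per cell cannot be told apart.

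Potassium channels return the membrane of a heart cell to rest after each beat. In the mouse ventricle a fast transient outward current, carried by Kcnd2 and Kcnd3 subunits with the accessory protein of Kcnip2, shortens the action potential, and delayed rectifiers, with subunits such as Kcna5, Kcnq1 and Kcnh2, complete repolarisation. Inward rectifiers of the Kcnj family hold the resting potential (Kcnj2, Kcnj12), respond to acetylcholine in the atria (Kcnj3, Kcnj5) or sense ATP (Kcnj11, Kcnj8). The two-pore channels give a steady leak, and calcium- or sodium-activated channels couple the current to the ion content of the cell. The 39 genes fall into 5 classes. There are 16 voltage-gated alpha subunits of 40 in the annotation, 6 voltage-gated auxiliary subunits of 13, 8 inward rectifiers of 15, 3 two-pore channels of 14, and 6 calcium- or sodium-activated channels of 12. Kcna4 and Kcnma1, a transient outward and a large-conductance subunit known from heart, stayed below the minimum, with mean counts of 4.71 and 4.5 among hearts given peptide and 2.94 and 0.938 among those given antibody.

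Total counts per heart ranged from 4478991 to 6015767 with peptide and from 6397192 to 8310478 with antibody. Of all genes tested, 0 of 11985 with peptide and 0 of 12274 with antibody passed an adjusted p of 0.05 by the quasi-likelihood test of edgeR, while DESeq2 called 12 and 0. The 8 genes listed as ventricular markers were Myh6, Myl2, Myl3, Tnnt2, Tnni3, Actc1, Ryr2 and Irx4. They summed to at least 40512 CPM (counts per 1000000 after TMM scaling, a correction for library composition) in every heart. Myh6 was the highest of them, with means of 31453 CPM with Aβ42 and 34067 CPM with ScrAβ42. The sum was not tested as a measure of ventricle against atrium. The 5 atrial markers (Sln, Myl7, Myl4, Bmp10 and Mybphl) differed widely between hearts. Their sum ran from 12.4 to 8417 CPM with Aβ42 (median 1158), from 3.82 to 3665 CPM with ScrAβ42 (median 10.5), from 1.05 to 668 CPM with 3D6 (median 98.5) and from 0.821 to 2776 CPM with the control antibody (median 2.88). Nothing in the labels says how the samples were dissected.

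The channel transcripts spanned more than 2 orders of magnitude in level (the plot of levels by class). Compared per kilobase of annotated exon, Kcnk3, a two-pore leak channel, was the highest in both studies, at 68.6 and 65.2 CPM per kb (peptide and antibody). Kcnip2, Kcnj11 and Kcng2 followed in the peptide study at 52.5, 51.5 and 39.1 CPM per kb. In the other study the order was Kcng2, Kcnj11 and Kcnip2, at 40.4, 36.3 and 19.8. Kcng2 encodes a voltage-gated subunit that forms no channel alone and modifies others. Kcnh2, the alpha subunit of the rapid delayed rectifier, stood at 23 and 17.6 CPM per kb, and Kcnj5 at 23.3 and 11.1. Among the calcium- and sodium-activated channels, Kcnn1 led at 4.32 and 3.10 CPM per kb and Kcnn2, another small-conductance channel, followed at 2.05 and 1.38. At the low end of the tested genes were Kcnh7 with peptide, at 0.133 CPM per kb, and Kcnc1 with antibody, at 0.153. Over the 27 genes tested in both studies, the rank correlation of the level per kb between the studies was 0.97, a description in which gene length is shared by both axes. The tables were made and scaled separately, and 23 of the 27 genes had the higher mean CPM in the peptide study. The ratio of the 2 means was largest for Kcnt2 (3.13), Kcnip2 (2.65) and Kcne4 (2.40) and smallest for Kcnv2 (0.790). The count of 23 was not set beside the same count over all genes. Mitochondrial genes took 12.9% to 22.2% of the counts per heart with peptide and 25.9% to 37.8% with antibody. The difference in channel levels between tables was not tested.

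**Figure D1:**
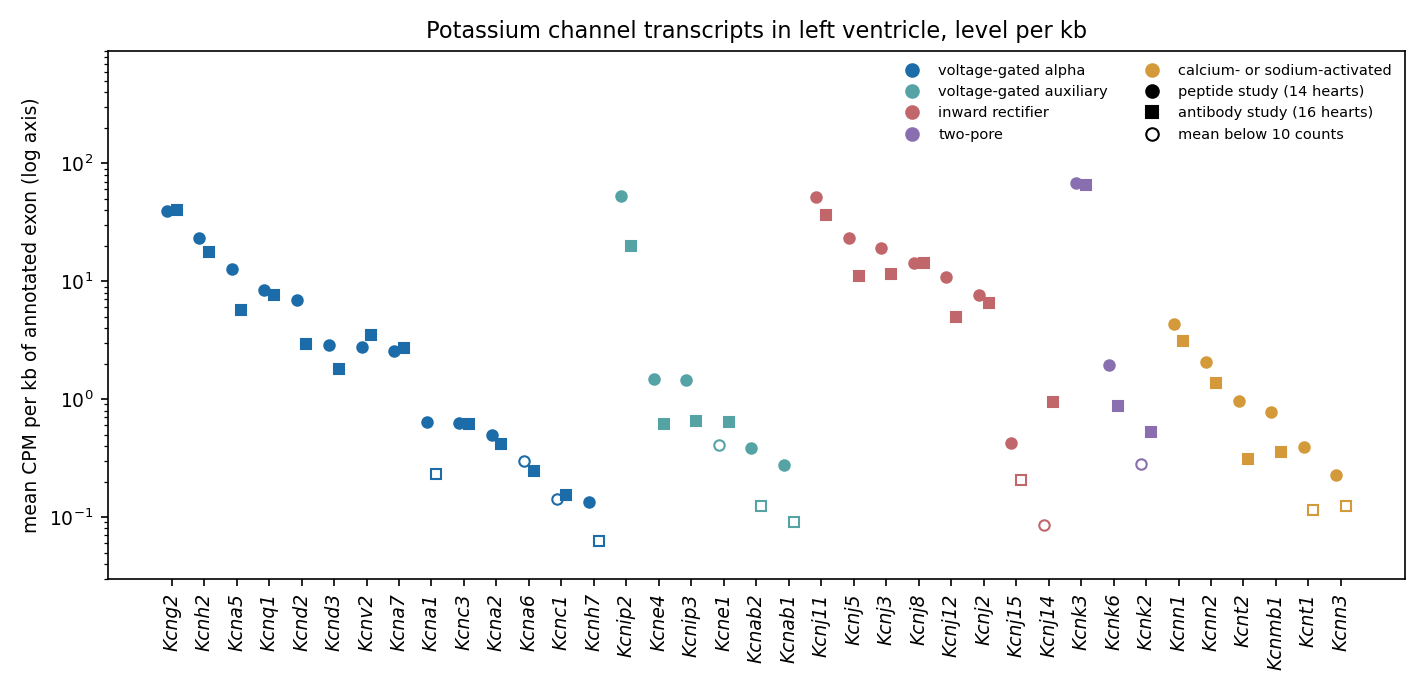
Mean CPM per kb of annotated exon (log axis) for 37 of the 39 channel genes, ordered by class and by level in the peptide study. Circles are the mean of the 14 hearts of the peptide study and squares the mean of the 16 hearts of the antibody study; open symbols mark genes below a mean of 10 counts in that study, and Kcnk3 is the highest point in both.

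The first comparison asks whether Aβ42 changed the channel transcripts against its scrambled control. With Aβ42, 20 of the 34 tested genes were higher and 14 lower, with a median log2 fold change of 0.04, beside 6051 of all 11985 genes higher (50.5%) and a median of 0.00 over all genes (the plot of fold changes). At an adjusted p under 0.05, 0 of the 34 genes were called by edgeR (0% of all genes), and the lowest adjusted p was 0.639. DESeq2 called 0 as well, with no adjusted p for Kcnh7 and Kcnab1, which its filter on low counts set aside. At an unadjusted p under 0.05, 3 genes were higher, Kcnh7, Kcnj3 and Kcnmb1, against 3.59% of all genes. None was lower at this level (0 of 34), against 2.92% of all genes. By class, 7 of 14 voltage-gated alpha subunits, 3 of 5 auxiliary subunits, 5 of 7 inward rectifiers, 2 of 2 two-pore channels and 3 of 6 calcium- or sodium-activated channels were on the higher side. The standard errors of the 34 log2 fold changes ran from 0.07 (Kcnk3) to 0.95 (Kcnj15), with a median of 0.20.

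**Figure D2:**
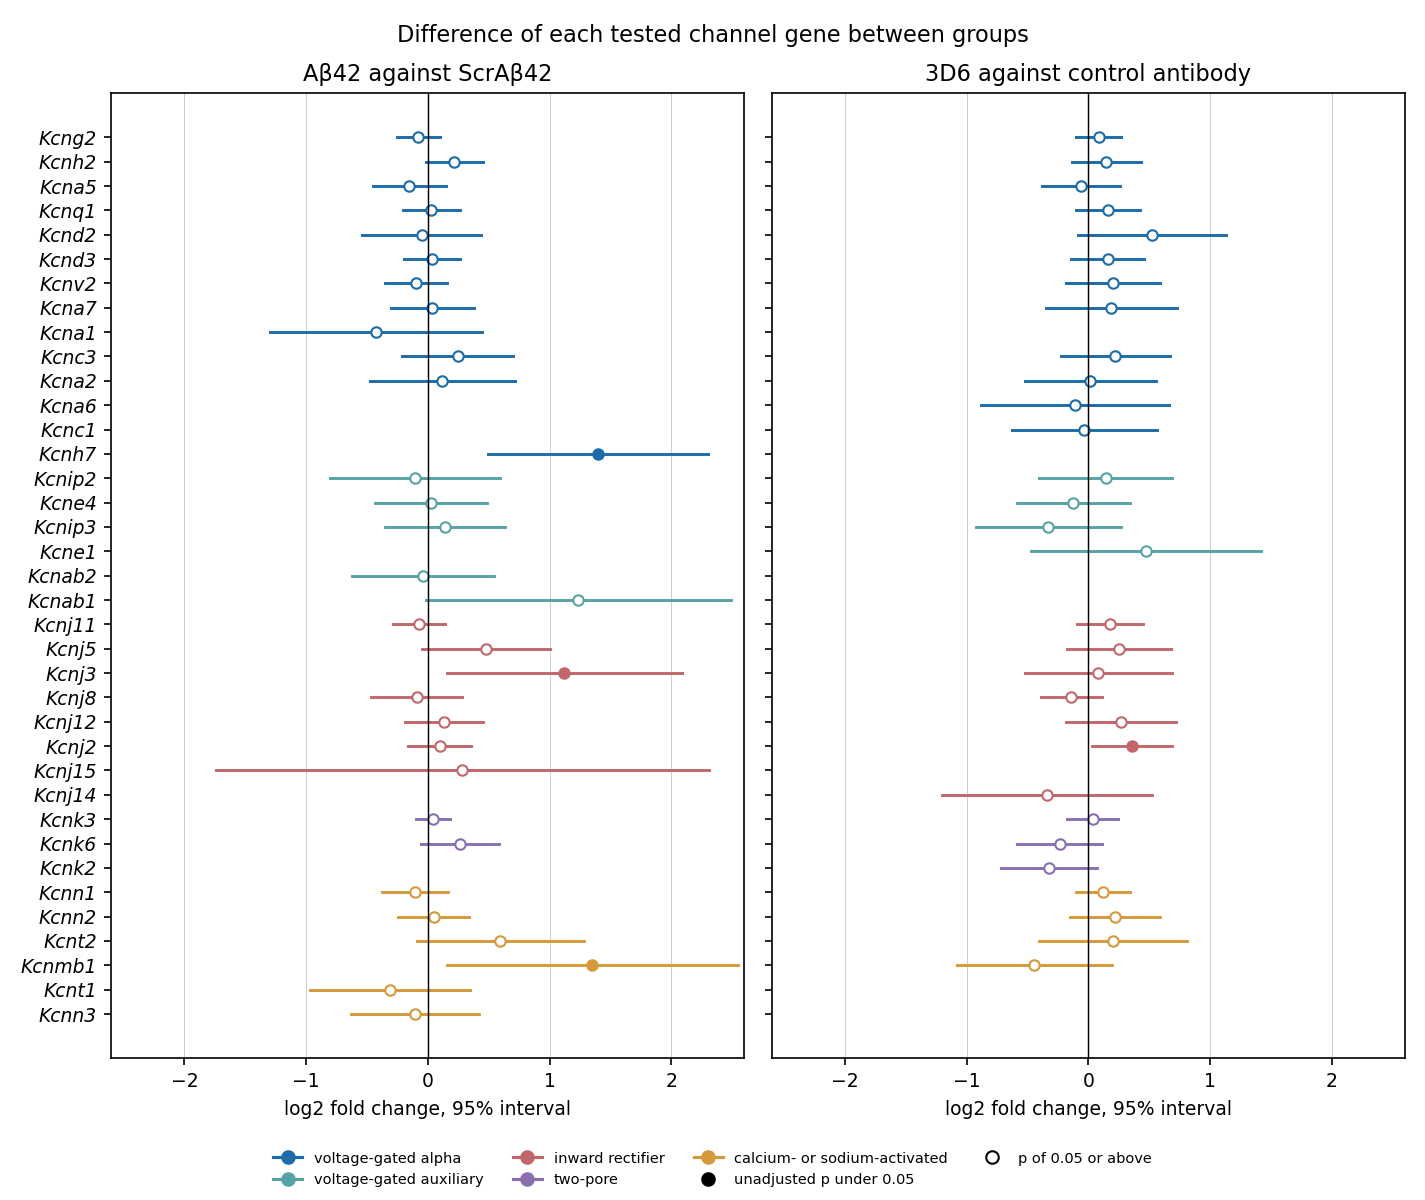
Log2 fold change with its 95% interval for the channel genes tested that are drawn here, Aβ42 against ScrAβ42 on the left (7 and 7 hearts) and 3D6 against the control antibody on the right (8 and 8 hearts); a gene without a line was below a mean of 10 counts there. Filled points have an unadjusted p under 0.05 (Kcnh7, Kcnj3 and Kcnmb1 on the left, Kcnj2 on the right), and no gene passed after adjustment.

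Kcnh7 encodes an ether-a-go-go-related subunit best known from neurons (chr2:62693414-63184287, minus strand, GRCm38). It was a rare transcript, with 4 to 8 counts in the hearts given ScrAβ42 and 3 to 52 in those given Aβ42. Its level ran from 0.621 through a median of 1.87 to 7.14 CPM with Aβ42 and from 0.874 through 1.08 to 1.36 CPM with ScrAβ42. In 6 of 7 hearts given Aβ42 its CPM exceeded that of every heart given ScrAβ42, and the seventh, mouse Ab52, had the lowest value of all. Of those 6, mice Ab51 and Ab60 had 8 counts each, the same as mouse Sc48 given ScrAβ42, so they exceeded it only after scaling. The log2 fold change was 1.4 ± 0.43 (SE, edgeR adjusted p = 0.639). Without mouse Ab57, which had the highest value, and with the gene kept in the test, it was 0.98 ± 0.36, still with an unadjusted p under 0.05. Adjusted for the atrial marker score it was 0.62, no longer so. Exons of Kcnh7 overlap those of Gca on the other strand, and the strand setting used in mapping is not given in the sources used here.

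Kcnmb1, the beta subunit of the large-conductance calcium-activated channel in smooth muscle, was high in 1 heart only. Its value was 18.4 CPM in mouse Ab57 and 1.86 to 2.96 CPM in the other 6 hearts given Aβ42, against 0.581 to 2.87 CPM (median 2.12) with ScrAβ42. The log2 fold change was 1.35 ± 0.56 by edgeR (SE, adjusted p = 0.717) and 0.30 by DESeq2, and without mouse Ab57 it was 0.31 by edgeR. Mouse Ab57 also had the highest sum of the 9 smooth muscle and pericyte markers, 2413 CPM against at most 1285 CPM in any other heart of the study, with Myh11 at 750 CPM, and of the 4 adipocyte markers, 519 CPM against at most 137 CPM. Between the groups, Myh11, Acta2 and Tagln had log2 fold changes of 0.92, 1.22 and 1.38. The rest of the 9 smooth muscle and pericyte markers lay between -0.28 (Notch3) and 0.19 (Cspg4). The part of these cells in the values of mouse Ab57 was not tested. Kcnab1, an accessory subunit of voltage-gated channels, had its highest value in the same heart, 11.8 CPM, and lay between 0.387 and 4.20 CPM in the other hearts given Aβ42 and between 0.775 and 2.88 CPM with ScrAβ42. Its log2 fold change of 1.24 ± 0.59 (SE, edgeR adjusted p = 0.763) was 0.36 without that heart.

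**Figure D3:**
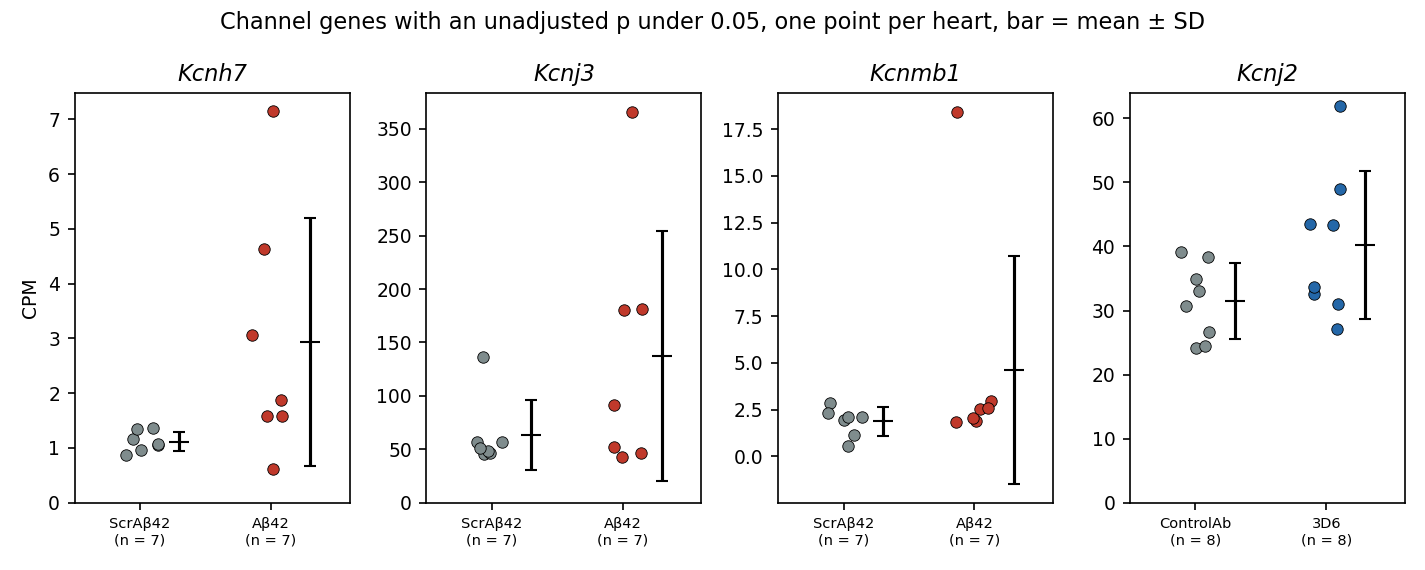
CPM in each heart for the 3 genes with an unadjusted p under 0.05 in the peptide study and for Kcnj2 in the antibody study; each point is 1 heart and the bar is the mean ± SD of its group. The values of Kcnmb1 with Aβ42 hold 1 heart at 18.4 CPM and the others under 3 CPM, while those of Kcnj2 overlap between groups.

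Kcnj3 and Kcnj5 encode the partners of the acetylcholine-activated inward rectifier, which is known for slowing atrial and nodal cells. The 250 bases before their transcription starts in RefSeq (GRCm38.p6) are printed since both genes were high in the same hearts. Kcnj3 lies at chr2:55435970-55598145 on the plus strand and its window at chr2:55435720-55435969. Kcnj5 lies at chr9:32314707-32344350 on the minus strand and its window at chr9:32344345-32344594. Capitals mark matches, on either strand, to any of 6 short motifs of heart and general factors: the GATA factor letters AGATAA, the T-box letters AGGTGT, the NKX2-5 letters CAAGTG, the MEF2 letters TAAAAATA, the E-box letters CACGTG, which read the same on both strands, and the Sp1 letters GGGCGG.
Kcnj3: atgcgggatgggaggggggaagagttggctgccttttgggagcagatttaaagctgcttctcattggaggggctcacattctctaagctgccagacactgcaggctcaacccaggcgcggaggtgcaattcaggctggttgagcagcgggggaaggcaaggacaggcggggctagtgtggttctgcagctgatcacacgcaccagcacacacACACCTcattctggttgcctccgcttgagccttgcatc
Kcnj5: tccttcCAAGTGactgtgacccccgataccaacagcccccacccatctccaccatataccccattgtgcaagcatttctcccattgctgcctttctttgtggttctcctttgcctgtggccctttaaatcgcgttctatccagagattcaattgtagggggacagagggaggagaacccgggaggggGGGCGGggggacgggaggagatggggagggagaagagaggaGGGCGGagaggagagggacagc
The Kcnj3 window holds 1 match, to the T-box letters read on the other strand, and the Kcnj5 window holds the NKX2-5 letters and the Sp1 letters. The T-box letters occur in 5 of the 25 channel genes with a RefSeq window (20.0%) and in 13.6% of all 27025 genes, the NKX2-5 letters also in 5 (20.0%) against 13.2%, and the Sp1 letters in 12 (48.0%) against 35.4%. The GATA letters occur in 1 of the 25 genes (4.00%, against 11.4%), the E-box in 3 (12.0%, against 6.86%) and the MEF2 letters in 0 (against 2.84%). A match of letters is a description and not a binding site.

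Kcnj3 ran from 43.2 CPM through a median of 91.6 to 366 CPM with Aβ42 and from 45.9 through 51.1 to 136 CPM with ScrAβ42. The 3 highest hearts given Aβ42 were mouse Ab57 (366 CPM), mouse Ab55 (182 CPM) and mouse Ab58 (179.9 CPM), all above the highest heart given ScrAβ42, mouse Sc48 (136 CPM). The other hearts overlapped, and mouse Ab52 had the lowest value of both groups. The log2 fold change was 1.12 ± 0.45 (SE, edgeR adjusted p = 0.712). Kcnj5 ran from 79.2 through 104 to 216 CPM with Aβ42 and from 61.6 through 87 to 159 CPM with ScrAβ42, with a log2 fold change of 0.48 ± 0.25 (SE, edgeR adjusted p = 0.775). Its 4 highest hearts, mice Ab57 (216 CPM), Ab58 (160.4 CPM), Sc48 (159 CPM) and Ab55 (158 CPM), were the 4 highest for Kcnj3.

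These 4 hearts also had the 4 highest sums of the atrial markers (the plot of channel genes against atrial markers). Mouse Ab57 stood at 8417 CPM, mouse Ab55 at 4707, mouse Ab58 at 4357 and mouse Sc48 at 3665 CPM. Mouse Ab51 came next at 1158 CPM and was also next for Kcnj3 with 91.6 CPM. In the remaining 9 hearts the marker sum was between 3.82 and 158 CPM and Kcnj3 between 43.2 and 57.3 CPM. The atrial markers moved with the group, since all 5 were on the higher side with Aβ42 (median log2 fold change 2.31). Adjusted for the atrial marker score, Kcnj3 had a log2 fold change of -0.10 and Kcnj5 of -0.05, so both signs turned. Without mouse Ab57 alone, Kcnj3 stood at 0.65 and Kcnj5 at 0.30, neither with an unadjusted p under 0.05. That mouse was the highest for both genes, so leaving it out lowers both values by construction. The share of atrial tissue in these samples was not measured, and its part in the values was not tested further.

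Kcnip2 and Kcnj8 ran the other way across the same hearts. Kcnip2, the accessory subunit of the transient outward channel, was at 28.3 CPM in mouse Ab57 and at 134 to 248 CPM in the other 6 hearts given Aβ42. With ScrAβ42 it was lowest in mouse Sc48, at 104 CPM, and in mouse Sc49, at 134 CPM, and between 206 and 229 CPM in the others. The groups overlapped throughout, with a log2 fold change of -0.11 ± 0.33 (SE, edgeR adjusted p = 0.969), and without mouse Ab57 it was 0.08. Kcnj8, the ATP-sensitive subunit of vascular and mural cells, was also lowest in mouse Ab57, at 17.6 CPM, and at 27.4, 29.8 and 30.1 CPM in mice Ab58, Ab55 and Sc48, below every other heart of either group. Its log2 fold change was -0.09 ± 0.18 (SE, adjusted p = 0.952). Mouse Ab57 had the lowest value of 7 of the 34 tested genes and the highest value of 11 (20.6% and 32.4%), beside 22.2% and 21.3% of all genes. Mouse Ab52 had the lowest value of 10 of the 34 (29.4%), Kcnj3, Kcnq1, Kcnk3 and Kcng2 among them, beside 6.39% of all genes.

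**Figure D4:**
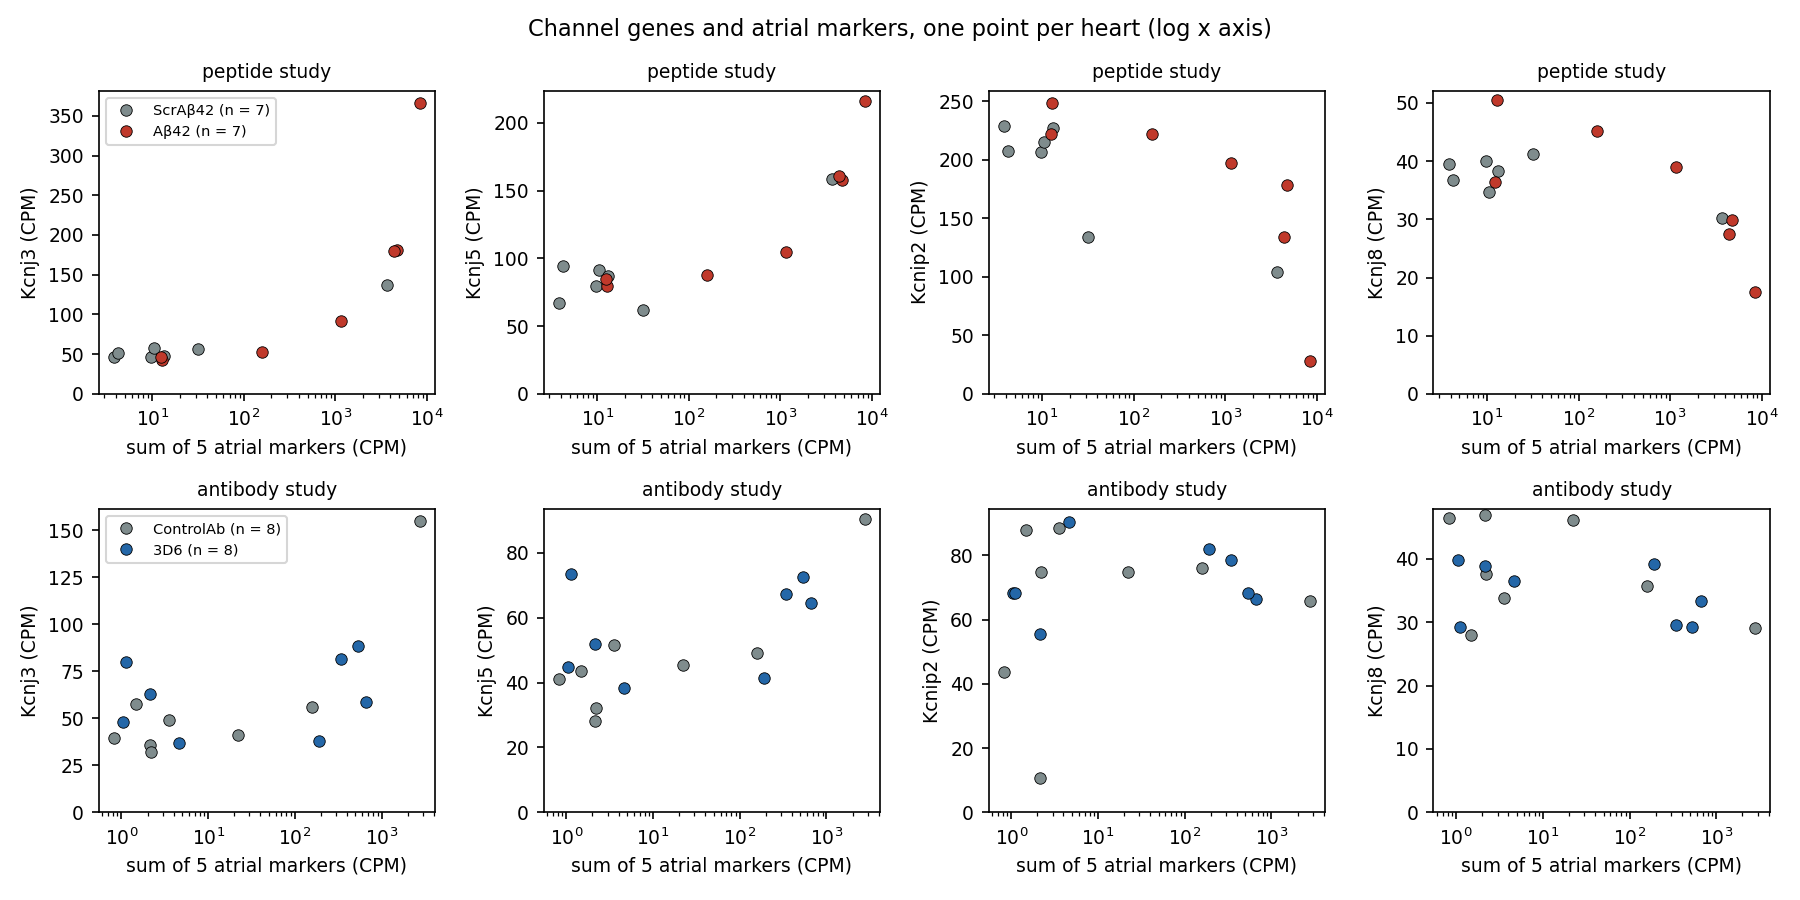
Kcnj3, Kcnj5, Kcnip2 and Kcnj8 (CPM) in each heart against the summed CPM of 5 atrial markers (log x axis), peptide study above and antibody study below, with grey points for the control groups. In the peptide study the 4 hearts with the most atrial markers are the highest for Kcnj3 and Kcnj5 and the lowest for Kcnj8, while in the antibody study a heart at 1.12 CPM of atrial markers has 80.2 CPM of Kcnj3.

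The other genes of the repolarising currents differed little between Aβ42 and ScrAβ42. Kcnd2, the main pore subunit of the transient outward current, ran from 20.1 through 35.6 to 53.9 CPM with Aβ42 and from 17.3 through 37.4 to 52.1 CPM with ScrAβ42 (log2 fold change -0.05 ± 0.23). Adjusted for the atrial score it was 0.39, with an unadjusted p under 0.05, so the sign turned. Kcnd3 ran from 23.8 to 31.3 CPM and from 18.3 to 31.2 CPM (0.03 ± 0.11). Kcna5, of the ultrarapid current, ran from 20.1 to 46.2 CPM and from 29.8 to 42.2 CPM (-0.15 ± 0.14).

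Kcnh2 was between 92.1 and 152 CPM with Aβ42 and between 78.9 and 116 CPM with ScrAβ42, and 4 of 7 hearts given Aβ42 exceeded every control heart. Its log2 fold change was 0.22 ± 0.11 (edgeR adjusted p = 0.763), and 0.15 without mouse Ab57. Kcnq1, the slow delayed rectifier, had a log2 fold change of 0.03 ± 0.11. Kcnq1 shares exon positions with the antisense transcript Kcnq1ot1, as 16 of the 39 genes do with another gene, 15 of them on the other strand only. Its partner Kcne1 was below the minimum here, at 0.137 to 3.93 CPM. The inward rectifiers Kcnj2 and Kcnj12 had log2 fold changes of 0.10 ± 0.12 and 0.13 ± 0.15, Kcnj11 of -0.07 ± 0.10, and the leak channel Kcnk3, with the tightest estimate, of 0.04 ± 0.07 (95% interval -0.10 to 0.19). Kcnk3 ran from 239.6 to 307 CPM across the hearts given Aβ42 and from 252 to 299 CPM across those given ScrAβ42.

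Among the low-count genes, Kcna1, a voltage-gated subunit of nerve fibres, ran from 0.207 to 5.92 CPM with Aβ42 and from 2.32 to 5.19 CPM with ScrAβ42 (log2 fold change -0.42 ± 0.41). Leaving out each mouse in turn moved the log2 fold change of Kcna1 between -0.76 and -0.23, and with the atrial score in the fit it was -1.05, with an unadjusted p under 0.05 (edgeR adjusted p = 0.555). Kcnt1, a sodium-activated channel, ran from 1.91 to 4.87 and from 1.55 to 6.93 CPM (-0.31 ± 0.31). Kcnk6, a two-pore channel, was at 6.0, 8.62 and 11 CPM (lowest, median and highest) with Aβ42 and at 5.74, 6.83 and 9.04 CPM with ScrAβ42 (0.26 ± 0.15, edgeR adjusted p = 0.795). Kcng2 (-0.08 ± 0.08), Kcnn1 (-0.10 ± 0.13), Kcnn2 (0.05 ± 0.14), Kcne4 (0.02 ± 0.22) and Kcnip3 (0.14 ± 0.23) had intervals on both sides of 0.

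The second comparison asks whether neutralising the peptide changed the channel transcripts. With 3D6, 21 of the 32 tested genes were higher and 11 lower, with a median log2 fold change of 0.13, beside 5814 of all 12274 genes higher (47.4%) and a median of -0.01. At an adjusted p under 0.05, 0 of the 32 genes were called by edgeR (0% of all genes) and 0 by DESeq2. At an unadjusted p under 0.05, 2 genes were higher, Kcnj2 among them, against 1.32% of all genes, and 0 of 32 were lower, against 2.32% of all genes. On the higher side were 10 of 14 voltage-gated alpha subunits, 2 of 4 auxiliary subunits, 5 of 7 inward rectifiers, 1 of 3 two-pore channels and 3 of 4 calcium-activated or sodium-activated channels. Scaled to the total count in place of TMM, 19 of the 32 were higher, and over all genes 91 were higher and 438 lower at an unadjusted p under 0.05, in place of 162 and 285.

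Kcnj2 (chr11:111066164-111076821, plus strand), the main subunit of the resting inward rectifier, was at 27.0 CPM in the lowest, 38.5 at the median and 62.0 in the highest heart given 3D6 and at 24.2, 31.9 and 39.1 CPM with the control antibody. Of the 8 hearts given 3D6, 4 exceeded every control heart, and the others overlapped the controls. Its log2 fold change was 0.36 ± 0.16 (SE, edgeR adjusted p = 0.946). Kcnd2 had the largest log2 fold change of the 32 genes, 0.52 ± 0.29 (edgeR adjusted p = 0.946), with 12.3, 13.8 and 36.3 CPM against 4.28, 11.7 and 20.7 CPM. All 8 hearts given 3D6 exceeded the median of the controls for Kcnd2, and 2 exceeded every control heart.

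One heart of each group stood at the ends of these ranges. Mouse 4, given 3D6, had the highest value of Kcnj2 (62.0 CPM), Kcnd2 (36.3 CPM), Kcnj11 (160.4 CPM) and Kcng2 (143 CPM). Without it the log2 fold changes were 0.24 for Kcnj2 and 0.30 for Kcnd2, neither with an unadjusted p under 0.05. Leaving out the highest treated heart of a gene lowers its log2 fold change by construction. Mouse 22, given the control antibody, had the lowest value of 13 of the 32 genes (40.6%), beside 24.8% of all genes. It was lowest for Kcnd2 (4.28 CPM), Kcnj2 (24.2 CPM), Kcnip2 (10.8 CPM), Kcnj11 (65.0 CPM), Kcnj5 (28.2 CPM), Kcnk3 (185 CPM), Kcnn2 (3.71 CPM), Kcnq1 (19.7 CPM) and Kcna7 (1.57 CPM, a voltage-gated subunit of heart and skeletal muscle). In the same heart Kcnv2 and Kcnj8 were at their highest, 29.2 and 46.9 CPM. Without mouse 22 the log2 fold changes of Kcnj2 and Kcnd2 were 0.32 and 0.40.

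Across the 16 hearts, some channel genes followed Ryr2 in part (the plot of channel genes against Ryr2). Ryr2, the calcium release channel of the sarcoplasmic reticulum, is 1 of the 8 genes listed as ventricular markers. It was set beside the channel genes after their values were seen. Of the 8 markers, 3 were higher and 5 lower with 3D6 (median log2 fold change -0.04). Ryr2 had the highest log2 fold change of the 8, 0.17 ± 0.21. Ryr2 was highest in mice 12, 7 and 4 given 3D6 (1652, 1601 and 1588 CPM) and in control mouse 8 (1599 CPM), and lowest in control mouse 22 (567 CPM). Kcnj2 was highest in mouse 4 (62.0 CPM) and mouse 7 (49 CPM), followed by mouse 24 (43.5 CPM), whose Ryr2 was at 866 CPM, and mouse 12 (43.4 CPM). The 4 highest for Kcnj11 were mouse 4 (160.4 CPM), mouse 7 (156 CPM), control mouse 8 (152 CPM) and control mouse 3, which came next for Ryr2. Mouse 12, the highest for Ryr2, was not among these 4, at 144.8 CPM. Kcnd2 was at only 13.3 CPM in mouse 7. Kcnip2 was highest in mouse 16 (90.5 CPM), against 68.2 CPM in mice 4 and 7. Kcnj8 ran against Ryr2, with 29.2, 29.2, 29.6 and 27.9 CPM in mice 4, 7, 12 and 8 and 46.9 CPM in mouse 22. Myl2, a short ventricular transcript, also ran against Ryr2, at 2613 to 3421 CPM in mice 4, 7, 8 and 12 and at 7617 CPM in mouse 22. The share of counts on mitochondrial genes was 37.8% in mouse 4, 37.7% in mouse 8 and 25.9%, the lowest, in mouse 22. Adjusted for that share, the log2 fold changes were 0.19 for Kcnj2 and 0.19 for Kcnd2, neither with an unadjusted p under 0.05. What set these hearts apart was not tested.

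**Figure D5:**
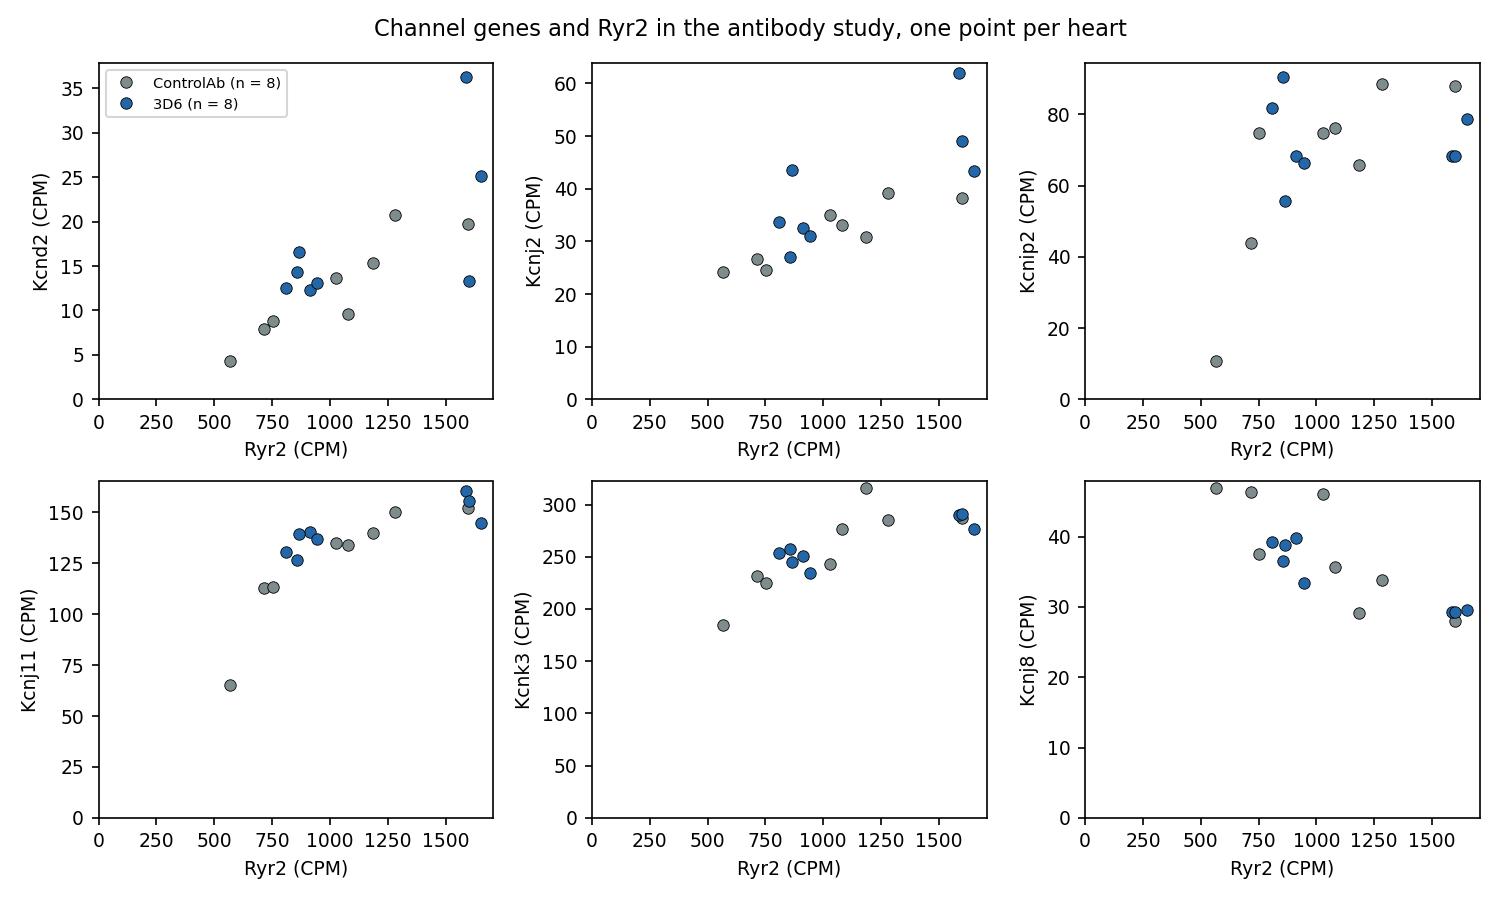
Kcnd2, Kcnj2, Kcnip2, Kcnj11, Kcnk3 and Kcnj8 (CPM) in each heart of the antibody study against Ryr2 (CPM), blue for 3D6 and grey for the control antibody. Control mouse 22, at 567 CPM of Ryr2, is the lowest point for the first 5 genes and the highest for Kcnj8, and 3 of the 4 hearts with the most Ryr2 were given 3D6.

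Kcnj3 and Kcnj5 did not separate the antibody groups. Kcnj3 was at 36.8, 60.9 and 88.4 CPM (lowest, median and highest) with 3D6 and at 32.4, 45.1 and 155 CPM with the control antibody, with a log2 fold change of 0.08 ± 0.29 (SE, edgeR adjusted p = 0.967). The highest heart was control mouse 15, with 155 CPM of Kcnj3, 90.3 CPM of Kcnj5 and the highest sum of atrial markers, 2776 CPM. Mouse 4, with atrial markers at 1.12 CPM, had 80.2 CPM of Kcnj3 and 73.3 CPM of Kcnj5. Kcnj5 had a log2 fold change of 0.25 ± 0.20. Without mouse 15, Kcnj3 stood at 0.48, Kcnj5 at 0.46 and Kcnh2, also highest in that heart, at 0.29, each with an unadjusted p under 0.05. Leaving out the highest control heart of a gene raises its log2 fold change by construction, so these p-values are no evidence of a difference. The share of all genes at that level without mouse 15 is not given here. With control mice 15 and 22 both left out, an alternative chosen after the values were seen, 4 of 30 channel genes tested were higher at an unadjusted p under 0.05, as were 198 of all 12210 genes. These were Kcnh2 (0.31), Kcnv2 (0.36), Kcnj5 (0.39) and Kcnj3 (0.44), all with an edgeR adjusted p of 0.999, while Kcnj2 (0.31) was not among them.

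The remaining repolarising genes leaned to the higher side with 3D6 with intervals that included 0. Kcnd3 (0.16 ± 0.14), Kcnq1 (0.16 ± 0.13), Kcnh2 (0.15 ± 0.14), Kcnj11 (0.18 ± 0.13), Kcnj12 (0.27 ± 0.21), Kcnip2 (0.15 ± 0.26), Kcnn2 (0.22 ± 0.18) and Kcnk3 (0.03 ± 0.10) had positive log2 fold changes, and Kcna5 (-0.06 ± 0.15) a negative one. Kcnip2 was between 55.7 and 90.5 CPM in every heart given 3D6 and between 43.8 and 88.6 CPM in the controls other than mouse 22, and without that heart its log2 fold change was -0.01. Kcne1, the accessory subunit of the slow delayed rectifier, reached 7.06 CPM in mouse 7 and 4.6 CPM in control mouse 11 and was at most 2.40 CPM elsewhere (0.47 ± 0.45). Its log2 fold change was 0.0049 without mouse 7 and 0.89 without control mouse 11, the lowest and highest values on leaving out each mouse.

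The 5 lowest signed statistics belonged to Kcnk2, Kcnmb1, Kcnk6, Kcnip3 and Kcnj8. Kcnk2, a two-pore channel opened by stretch, was at 1.44, 2.26 and 3.15 CPM with 3D6 and at 1.87, 2.93 and 3.56 CPM with the control antibody (log2 fold change -0.32 ± 0.19, edgeR adjusted p = 0.946). Kcnmb1 was at 0.563 to 2.76 CPM and 0.953 to 2.03 CPM (-0.44 ± 0.30), and 4 hearts given 3D6 lay below every control heart. Kcnk6 was at 1.92 to 4.38 CPM and 3.56 to 4.83 CPM (-0.24 ± 0.17), again with 4 hearts below every control. Kcnip3, a calcium-binding accessory protein, was at 0.848 to 3.15 CPM and 1.32 to 4.85 CPM (-0.33 ± 0.28), and Kcnj8 at 29.2 to 39.8 CPM and 27.9 to 46.9 CPM (-0.14 ± 0.12). Beside Kcnmb1 and Kcnj8, all 9 smooth muscle and pericyte markers were on the lower side with 3D6 (median log2 fold change -0.20, 1 of 9 with an unadjusted p under 0.05), with sums of 676 to 844 CPM against 684 to 895 CPM. All 5 endothelial markers were on the lower side as well, 2 of them with an unadjusted p under 0.05. The same side held all 5 fibroblast markers, the 3 leukocyte and 3 red cell markers tested, the 2 mesothelial markers tested (1 with an unadjusted p under 0.05), the 2 Schwann cell and neuron markers tested and the 4 atrial markers tested. Of the 8 genes listed as ventricular markers, 5 were lower and 3 higher. Over all genes, 6460 of 12274 were lower, and 2.32% of the 12274 were lower at an unadjusted p under 0.05. The part of these cell types in the values was not tested.

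The antibody table gives estimated counts per transcript, so the isoforms of a channel gene could be read there. Of 180 annotated transcripts of the 39 genes, 42 from 29 genes reached a mean of 10 counts. Of these, 31 were higher and 11 lower with 3D6, beside 10211 of all 20857 transcripts higher. At an adjusted p under 0.05, 0 of the 42 were called by edgeR (0% of all 20857 transcripts), and at an unadjusted p under 0.05 again 0, against 0.959% of all transcripts higher and 1.44% lower. DESeq2 gave 1 at an unadjusted p under 0.05, beside 274 higher and 332 lower of all 20857 transcripts. After adjustment it called 9 of all transcripts, none of them of a channel gene. The highest signed statistics were those of Kcnj2-201 (log2 fold change 0.36 ± 0.17), Kcnd2-201 (0.52 ± 0.32) and Kcnh2-201 (0.34 ± 0.22), and the lowest those of Kcnj8-202 (-0.19 ± 0.12), Kcnmb1-201 (-0.44 ± 0.36) and Kcnk6-201 (-0.22 ± 0.19). Kcnh2 was divided almost evenly between a pair of coding transcripts. Kcnh2-201 took 49.8% ± 10.5 of the gene's counts in the 3D6 hearts and 43.7% ± 12.1 in the controls (SD, n = 8 each), and Kcnh2-202 took 46.1% ± 9.30 and 49.4% ± 8.44. Kcnip2 was divided between Kcnip2-209, at 55.7% ± 14.7 and 51.7% ± 12.0, and Kcnip2-202, at 34.5% ± 15.0 and 31.0% ± 15.6. In control mouse 22, where the gene was lowest, 64.5% of its counts fell on Kcnip2-204, a transcript with a retained intron, and 0 on Kcnip2-202. That transcript took 8.02% ± 2.87 of the gene with 3D6. For Kcnj3 the share of Kcnj3-201 spread from 21.4% to 100% of the gene between hearts, and the source of this spread was not tested.

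Set side by side, 13 of the 27 shared genes were higher with both Aβ42 and 3D6, 3 were lower with both, 7 were lower with Aβ42 and higher with 3D6, and 4 were the reverse. The 11 genes of opposite sign are 40.7% of the 27, beside 53.6% of the 11361 genes tested in both studies. The 7 lower with Aβ42 and higher with 3D6 are 25.9% of the 27, beside 26.0% of those 11361 genes. Among the 7 were Kcnd2 (-0.05 ± 0.23 and 0.52 ± 0.29), Kcnip2 (-0.11 ± 0.33 and 0.15 ± 0.26) and Kcnj11 (-0.07 ± 0.10 and 0.18 ± 0.13). Kcnj2 was on the higher side in both, at 0.10 ± 0.12 and 0.36 ± 0.16. Kcnmb1 and Kcnk6 were among the 4, at 1.35 ± 0.56 and -0.44 ± 0.30 and at 0.26 ± 0.15 and -0.24 ± 0.17. The studies differ in treatment, duration, diet and counting, and the difference between their contrasts was not tested.

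Genes that work with the channels were read from fixed lists. Of 10 tested partner genes (sulphonylurea receptors, scaffolds and accessory proteins), 3 were higher and 7 lower with Aβ42 (median log2 fold change -0.02), and 7 higher and 3 lower with 3D6 (0.07), with 0 called in either study by edgeR. Abcc8, the receptor of atrial ATP-sensitive channels, was the 1 partner with an unadjusted p under 0.05, at 0.55 ± 0.23 with Aβ42, and its highest values were in mice Ab57, Ab58 and Ab55 (137, 107 and 94.4 CPM, against 41.2 to 71.3 CPM in the other hearts). Abcc9, the sulphonylurea receptor that pairs with Kcnj11 in ventricle, had log2 fold changes of -0.26 ± 0.26 and 0.09 ± 0.21. In the peptide study it was at 79.4 CPM in mouse Ab57 and at 216 to 403 CPM in the other hearts. Of the 7 transcription factors fixed for these channels, 2 were higher with Aβ42 and 7 with 3D6, none past the adjusted threshold. Klf15, a clock-dependent activator of Kcnip2, had log2 fold changes of 0.14 ± 0.08 and 0.23 ± 0.18, and Irx5, a repressor of Kcnd2, of -0.19 ± 0.45 and 0.01 ± 0.38. Klf15 was lowest in control mouse 22, at 12.5 CPM against at least 21.1 CPM in the other hearts of that study. Of the sodium-potassium pump genes, 3 of 6 were higher in each study. The pacemaker HCN channel genes were lower in 3 of 3 with Aβ42 and higher in 2 of 2 with 3D6, with Hcn4 (-0.85 ± 0.36 with Aβ42) at an unadjusted p under 0.05 and 0 called by edgeR after adjustment.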

How the data were processed

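Left ventricular RNA was sequenced from 14 hearts of the peptide study and 16 of the antibody study. The authors trimmed the reads and mapped them to the GENCODE mouse transcriptome of GRCm38 with Salmon (version not given in the sources used here). They deposited whole-number counts per gene for the peptide study, and estimated counts per transcript, the expected counts of Salmon, for the antibody study. Both tables are not normalized, and 1 column that matches no labelled sample was not used. Transcripts were summed to genes through GENCODE vM21 and rounded.

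Each study was fitted separately with edgeR 4.0.16 in R 4.3.3 (TMM, mean of at least 10 counts, quasi-likelihood test, two-sided, Benjamini-Hochberg over all genes). SE is the log2 fold change over the square root of F. The fits were tested on simulated counts, where changed transcripts were recovered less often than changed genes. Total counts per heart limit precision for rare transcripts. Hearts within a group differed beyond sampling noise, and p-values measure the spread between hearts.

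The channel genes, gene lists and tests were chosen with earlier results of these data known. Genes named are those of the main repolarising currents, per study the 5 highest and 5 lowest signed statistics, per class the 2 highest levels per kb, and the 3 highest and 3 lowest transcripts. The atrial score is the mean z-score of the log2 CPM of the atrial markers. Genes named for a heart's extreme value, and single genes named from the partner lists, were chosen after their values were seen. Alternatives were DESeq2 1.42.0, RLE and total-count scaling, no filter, the atrial score or mitochondrial share as a covariate, coding transcripts only, and leaving out each mouse. Some results are not reported here.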

Additional observations from a re-analysis of the deposited data

Results flagged for a closer look

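In each group of 7 or 8 hearts, a heart was marked where the gap to its nearest neighbour took more of the group's range than Dixon's 95% value allows. Of 92 groups of values examined for the named channel genes, 13 were marked. Chance alone marks about 1 in 20 where values are normally distributed, which was not tested for these CPM. The genes of 1 heart are not independent, and the same count was not made over all genes, so 13 is not a trait of channel genes.

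In the peptide study, Aβ42 mouse Ab57 was marked for Kcnj3 (366 CPM, next 182 CPM), Kcnmb1 (18.4 CPM, next 2.96 CPM) and Kcnab1 (11.8 CPM, next 4.20 CPM). ScrAβ42 mouse Sc48, the control heart with the highest atrial markers, was marked for Kcnj3 (136 CPM, next 57.3 CPM), Kcnj5 (159 CPM, next 94.7 CPM) and, at the low end, Kcna5 (29.8 CPM, next 37.4 CPM). ScrAβ42 mouse Sc45 was marked for Kcnab1 (2.88 CPM, next 1.67 CPM).

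In the antibody study, control mouse 15, with the highest atrial markers of that study, was marked for Kcnj3 (155 CPM, next 57.6 CPM), Kcnj5 (90.3 CPM, next 51.6 CPM) and Kcnh2 (133 CPM, next 77.1 CPM). Control mouse 22 was marked at the low end for Kcnj11 (65.0 CPM, next 113 CPM). Kcne1 was marked in 3D6 mouse 7 (7.06 CPM, next 2.40 CPM) and in control mouse 11 (4.6 CPM, next 2.28 CPM).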

How the results depend on the processing

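No setting called a channel gene or transcript at an adjusted p under 0.05. No paired analysis was possible because the groups compared share no replicate number. At an unadjusted p under 0.05, the 3 genes higher with Aβ42 (430 of all 11985 genes tested) became 5 without a filter (897 of 25203) and 6 with the mitochondrial share (709 of 11985). With the atrial score 1 gene was higher (302 of 11985), Kcnd2, which is not among the 3. Without mouse Ab57, with the filter of all mice, 1 was higher, Kcnh7 (269 of 11985, added after seeing the data). With DESeq2, Kcnab1 took the place of Kcnmb1 (398 of 11985). The genes lower (350 of all genes) became 2 with the atrial score (579) and 1 without mouse Ab57 (353). Leaving out each mouse in turn gave 0 to 7 higher, 0 without mouse Ab57, and 0 to 1 lower, with medians of 0.0045 to 0.075. For the fits without each mouse, here and below, the counts over all genes or transcripts are not given, so these ranges cannot be set against them. The 2 genes higher with 3D6 (162 of all 12274) became 0 with the mitochondrial share (284 of 12274), 1 with coding transcripts only (147 of 11320) and 4 without control mice 15 and 22 (198 of 12210, added), and 0 to 3 on leaving out each mouse, with medians of 0.082 to 0.17. It was 0 without 3D6 mouse 4, 7 or 12 or control mouse 18 or 23. Transcripts at that level went from 0 to 1 with DESeq2 (274 higher and 332 lower of all 20857) or no filter (3471 higher and 3879 lower of 77432). They went to 0 to 2 on leaving out each mouse.

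Some signs turned. In the peptide study the atrial score gave Kcna5 0.064, Kcnd2 0.39, Kcne4 -0.056, Kcnip2 0.36, Kcnj11 0.015, Kcnj12 -0.079, Kcnj3 -0.10, Kcnj5 -0.052, Kcnj8 0.17, Kcnn1 0.039, Kcnn2 -0.089, Kcnq1 -0.16 and Kcnt1 0.20. Without mouse Ab57 under the filter of all mice, Kcnd2 was 0.053, Kcne4 -0.093, Kcnip2 0.081, Kcnj8 0.030 and Kcnq1 -0.042. In the antibody study the mitochondrial share gave Kcnj3 -0.015 and Kcnk3 -0.048, total-count scaling gave Kcnk3 -0.0088, and leaving out control mice 15 and 22 gave Kcnip2 -0.033. Leaving out each mouse spanned, with Aβ42, Kcnd2 -0.19 to 0.059, Kcnd3 -0.044 to 0.073, Kcne4 -0.093 to 0.14, Kcnip2 -0.21 to 0.081, Kcnj8 -0.20 to 0.030, Kcnn2 -0.040 to 0.10 and Kcnq1 -0.042 to 0.11, and with 3D6, Kcna5 -0.13 to 0.022, Kcnip2 -0.011 to 0.22, Kcnj3 -0.0054 to 0.48 and Kcnk3 -0.016 to 0.091. The cause of these changes was not tested. DESeq2, RLE factors and no filter turned no sign among the named genes.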
